A study of Rattus norvegicus with 3 samples.

Results

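Microtubule-associated proteins were examined through 7 genes, Mapt, Trim46, Map1b, Map2, Map1a, Macf1 and Dcx, on 3 Affymetrix rat arrays. Members were every probe set whose only gene symbol in the platform annotation was one of these names, which gave 13 of the 20832 probe sets with a single symbol and 7 of the 14218 genes measured. Every array held amplified RNA of 1 soma, dissected by glass pipette from a neuron, pyramidal by its label, of a dispersed hippocampal culture of embryonic (day 19) Sprague-Dawley rats that had grown for 14 days without treatment. The somata formed 1 group and are called cell 1, cell 2 and cell 3 after their replicate numbers. Neither an animal nor a dish is named for any of them, and no dendrite or axon sample was analysed here. The genes were chosen by their log2 levels on these same arrays, where earlier readings had shown some of them high and Map2 low, so those levels are a description without a test. With 1 group of 3 cells, an exact two-sided sign-flip test could not go below p = 0.25.

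These proteins bind along microtubules and set how stable, how bundled and how accessible to motors they are. In a mature neuron the protein of Mapt, tau, is concentrated in the axon, and that of Map2, a relative of tau, in the soma and dendrites, where it is a standard marker that the study also used in its stainings. Map1b is abundant in growing axons, Map1a, its relative, is typical of mature dendrites, and Trim46 binds the parallel microtubule bundles at the start of the axon. On this textbook basis Mapt, Trim46 and Map1b were taken as axonal and Map2 and Map1a as dendritic. Macf1, a giant linker of actin and microtubules, and Dcx (doublecortin), which stabilises microtubules in young neurons, work in both kinds of process and were put in no class. The arrays measured messenger RNA in the cell body, whereas the classes describe where the proteins are found.

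Levels are the deposited log2 intensities. A percentile is the rank of a gene, or of a probe set, among all others of the same array, with 100 the brightest. Probes differ in how well they bind, so a percentile tells where a gene stood on the array and not how many transcripts it had compared with another gene. The median of all 14218 genes lies at 50 by construction. A gene was in the top 5% above the 95th percentile of an array, and above background where it exceeded the 95th percentile of 136 genes that neurons should not use, such as olfactory receptor and milk protein genes. That limit stood at 9.65 log2 in cell 1, 10.36 in cell 2 and 9.60 in cell 3.

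The median of the axonal members stood above that of the dendritic ones in all 3 somata, although the gene value of Map1b was below that of Map1a in cell 1. Mapt, Trim46 and the unclassed Macf1 were in the top 5% of every cell, a place held by 1.39% of all genes, while Map2 and Map1a reached it in no cell, as did 90.1% of all genes. By gene, 3 members were above background in all cells, where 1.77% of all genes were, and 2 members, again the dendritic pair, in none, where 85.4% of all genes were. By cell, the members above background were 3 in cell 1, 4 in cell 2 and 5 in cell 3, against 7.5%, 3.95% and 9.36% of all genes. In each cell these were the same members as those in the top 5%, so the counts by background and by top 5% are not separate observations. Since the members were proposed from these levels, the counts are read beside those shares and no more is drawn from them. By probe set, 5 of the 13 were in the top 5% of every cell, against 1.59% of all probe sets, and 7 were there in at least 1 cell, against 9.6%. The same number, 5, was above background in every cell, against 2.53%, and 9 in at least 1 cell, against 18.2%. With the 99th percentile of the 136 genes as the limit, Trim46 was the only member above it in every cell, where 0.352% of all genes were.

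**Figure D1:**
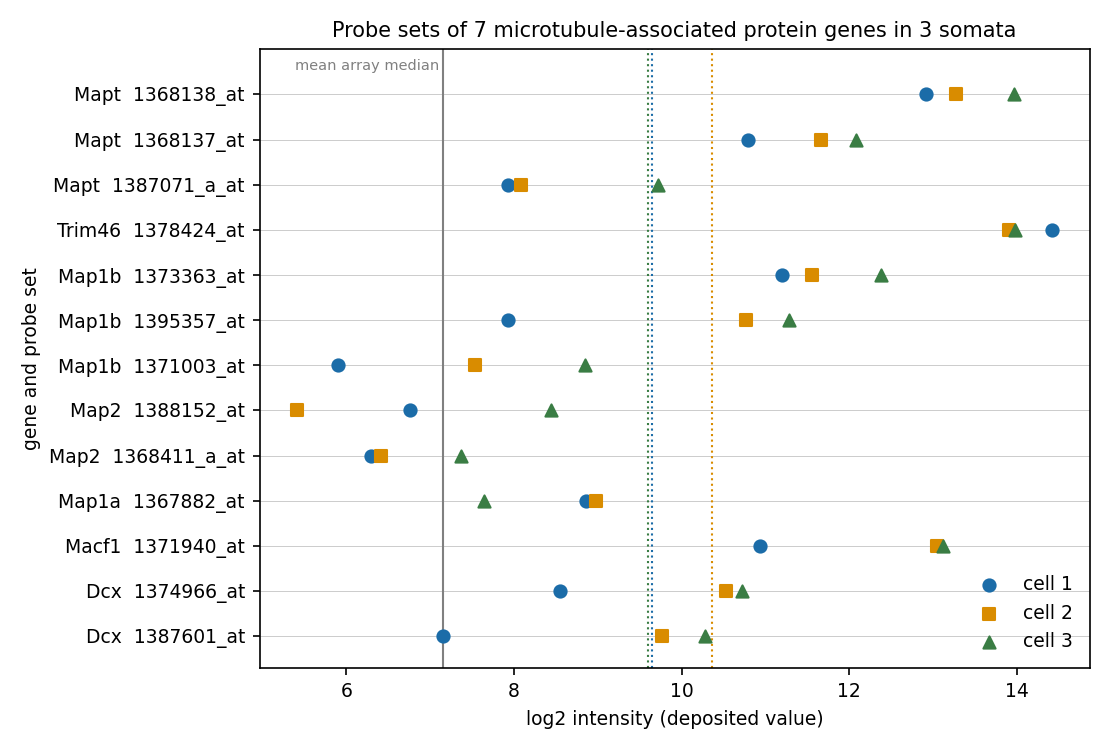
Deposited log2 intensity (horizontal axis) of the 13 probe sets of the 7 genes (vertical axis), where circles stand for cell 1, squares for cell 2 and triangles for cell 3, with the background limit of each cell as a dotted line and the mean of the array medians as a grey line. Trim46 and the brightest probe set of Mapt lie between 12.92 and 14.42 in all cells, whereas both probe sets of Map2 lie between 5.41 and 8.44.

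Among the axonal members, Mapt had 3 probe sets that differed in brightness but ordered the cells alike. The brightest, 1368138_at, read 12.92, 13.28 and 13.97 log2 in cells 1, 2 and 3, and 1368137_at read 10.79, 11.66 and 12.08. The third, 1387071_a_at, read 7.93, 8.08 and 9.72 and was above background in cell 3 alone. All 3 were lowest in cell 1 and highest in cell 3. As a gene, Mapt took the median of its probe sets and stood at percentiles of 97.4, 99.3 and 99.5, or 98.7 ± 1.15 (SD, n = 3 cells).

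Trim46, with 1 probe set, read 14.42, 13.91 and 13.98 log2 in cells 1, 2 and 3. Its percentiles of 99.99, 99.99 and 99.96 were the highest of any member in each cell. It was also the steadiest member, with an SD between cells of 0.26 log2 after quantile normalisation, and 8.37% of all genes had an SD as small. Mapt and Trim46 differed in the order of the cells, since Trim46 was highest in cell 1 and Mapt lowest there.

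Map1b depended on which of its probe sets was read. The brightest, 1373363_at, read 11.20, 11.55 and 12.38 log2 in cells 1, 2 and 3 and was in the top 5% of each. In 1395357_at the values were 7.93, 10.77 and 11.29, so that cell 1 stood at percentile 66.8 and the other cells in the top 5%. The dimmest, 1371003_at, read 5.90, 7.54 and 8.84 and passed background in no cell. The gene stood at percentiles of 68.1, 97.4 and 98.2, or 87.9 ± 17.2 (SD, n = 3 cells).

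Both dendritic members stayed below background, as 85.4% of all genes did in every cell, and they ordered the cells in different ways. Map1a was nevertheless above the array median in every cell, and Map2 in cell 3 alone. For Map2, 1388152_at read 6.76, 5.41 and 8.44 log2 in cells 1, 2 and 3, and 1368411_a_at read 6.29, 6.42 and 7.37. The gene stood at percentiles of 28.7, 17.7 and 67.5, or 38.0 ± 26.2 (SD, n = 3 cells). It was the only member whose percentile SD exceeded 20 points, as that of 35.4% of all genes did. In quantile-normalised log2 its SD of 1.05 was below those of Map1b (1.78), Dcx (1.42) and Macf1 (1.14). It was above those of Mapt, Trim46 and Map1a. Map1a, with 1 probe set, read 8.86, 8.97 and 7.64 log2 and stood at 85.4, 85.8 and 61.8, or 77.7 ± 13.8. Map2 was thus highest, and Map1a lowest, in cell 3.

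Of the members without a class, Macf1 read with the bright axonal genes. Its single probe set gave 10.94, 13.05 and 13.12 log2 in cells 1, 2 and 3, at percentiles of 97.9, 99.9 and 99.9. Cell 1 lay well below the other cells for this gene although it was in the top 5% of all. Dcx gave 8.55, 10.53 and 10.72 log2 with 1374966_at and 7.15, 9.76 and 10.28 with 1387601_at. Its percentiles of 66.1, 94.9 and 95.4 put it just below the top 5% in cell 2 and just inside it in cell 3.

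By their mean percentile the members ran from Trim46 through Macf1, Mapt, Map1b, Dcx and Map1a to Map2. Several neighbours in this order had ranges over the 3 cells that overlapped, namely Macf1 and Mapt, Mapt and Map1b, Map1b and Dcx, Dcx and Map1a, and Map1a and Map2. The range of Trim46 lay above that of Macf1, and the ranges of Mapt and Macf1 lay above those of Map1a and Map2. Read within each cell, Macf1 stood above Mapt, Mapt above Map1b and Map1b above Dcx every time. Only Dcx and Map1a, and Map1a and Map2, changed order between cells.

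The comparison of the classes was made within each soma. The median percentile of the 3 axonal genes was 97.4, 99.3 and 99.5 in cells 1, 2 and 3, and that of the 2 dendritic genes 57.1, 51.8 and 64.6. In each cell the axonal median was the value of Mapt, with Trim46 above it and Map1b below it. Axonal minus dendritic came to 40.4, 47.5 and 34.8 points, with a mean of 40.9 ± 6.37 (SD, n = 3 cells), and the axonal median was above the dendritic one in 3 of 3 cells. In cells 2 and 3 every axonal gene stood above both dendritic genes. In cell 1 the classes overlapped, because Map1b at 68.1 lay below Map1a at 85.4. This value of Map1b was that of its probe set 1395357_at. Ranked among probe sets in cell 1, its brightest, 1373363_at, stood at 98.1, its dimmest, 1371003_at, at 18.8 and Map1a at 83.0. Taken over all probe sets of a class instead of 1 value a gene, the mean difference was 54.8 points.

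Pairs of relatives gave different pictures. Mapt exceeded Map2 by 68.7, 81.6 and 31.9 percentile points in cells 1, 2 and 3, in the same direction each time. Map1b minus Map1a was -17.3 points in cell 1, 11.6 in cell 2 and 36.5 in cell 3. For the Map1 pair the mean difference of 10.2 points was smaller than its SD of 26.9 (n = 3 cells), and so did not exceed the spread between cells. When each gene took its brightest probe set, Map1b stood at 98.2 ± 0.89 and Map1a at 70.2 ± 14.7, so the result for this pair depended on the probe sets.

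**Figure D2:**
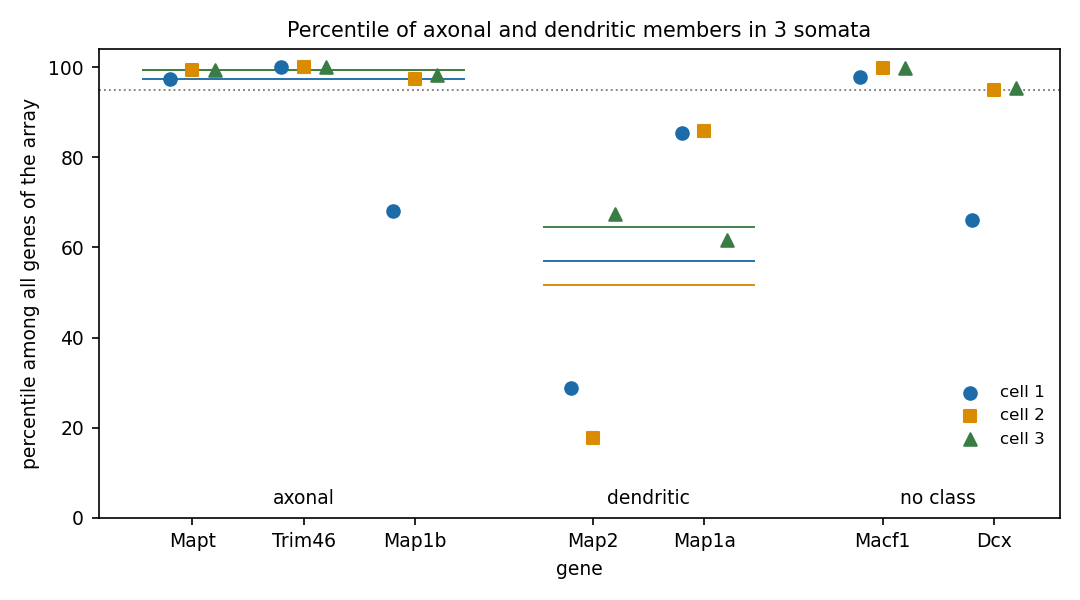
Percentile among all 14218 genes of the array (vertical axis) for each member (horizontal axis) in cell 1 (circles), cell 2 (squares) and cell 3 (triangles); horizontal lines in the colour of the cell give the class medians and the dotted line the 95th percentile. The axonal medians lie between 97.4 and 99.5 and the dendritic medians between 51.8 and 64.6, while Map1b in cell 1 falls below Map1a.

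Differences between cells were then read within each probe set, where the affinity of the probes cancels, after quantile normalisation of the arrays. Of the 13 probe sets, 10 were lowest in cell 1, against 43% of all probe sets, 10 were highest in cell 3, against 37.6%, and 9 were both, against 23.5%. These 9 belonged to Mapt, Map1b, Dcx and Map2, and probe sets of a gene are not independent. By gene, 3 of 7 members were lowest in cell 1 and highest in cell 3, against 23.4% of all genes. The members were chosen by their levels on these arrays, so the counts are a description. Compared with cell 1, cell 3 read higher in 11 of the 13, and among the 4 genes with several probe sets all 10 probe sets read higher there. Over all genes, 56.9% were higher in cell 3 than in cell 1. At least 1 log2 higher in cell 3 were 5 of 7 members, Mapt, Map1b, Map2, Macf1 and Dcx, against 28.5% of all genes. At least 1 log2 higher in cell 2 than in cell 1 were 3 members, Map1b, Macf1 and Dcx, against 24.9% of all genes.

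The sizes differed between members. From cell 1 to cell 3 the gene value of Map1b differed by 3.25 log2, that of Dcx by 2.55, that of Macf1 by 1.89, that of Map2 by 1.53 and that of Mapt by 1.00. Trim46 and Map1a went the other way, at -0.52 and -1.19 log2. Between cells 2 and 3 the gene values of Mapt, Trim46, Map1b, Macf1 and Dcx lay within 0.35 log2 of each other, the largest being 0.35 for Map1b, while cell 3 differed from cell 2 by 2.01 log2 for Map2 and by -1.28 log2 for Map1a. As Map2 and Map1a were below background in both cells, these last differences lie under that limit. Map1a still stood at percentiles of 85.8 in cell 2 and 61.8 in cell 3. Single probe sets of Mapt and Map1b also differed more than their genes did, by 1.55 log2 in 1387071_a_at and 1.29 log2 in 1371003_at.

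Probe sets of a gene did not always show the same size. For Map1b the difference of cell 3 from cell 1 was 0.82 log2 in the brightest probe set and 3.25 and 3.07 in the others. For Map2 the difference of cell 2 from cell 1 was -1.23 log2 in 1388152_at and 0.28 in 1368411_a_at, so the probe sets disagreed in direction there and agreed that cell 3 was highest. The median percentiles of probe sets of a gene spanned 29.8 points for Mapt, 40.1 for Map1b, 5.66 for Map2 and 4.33 for Dcx, where the median span over the 4526 genes with several probe sets was 33.4 points.

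**Figure D3:**
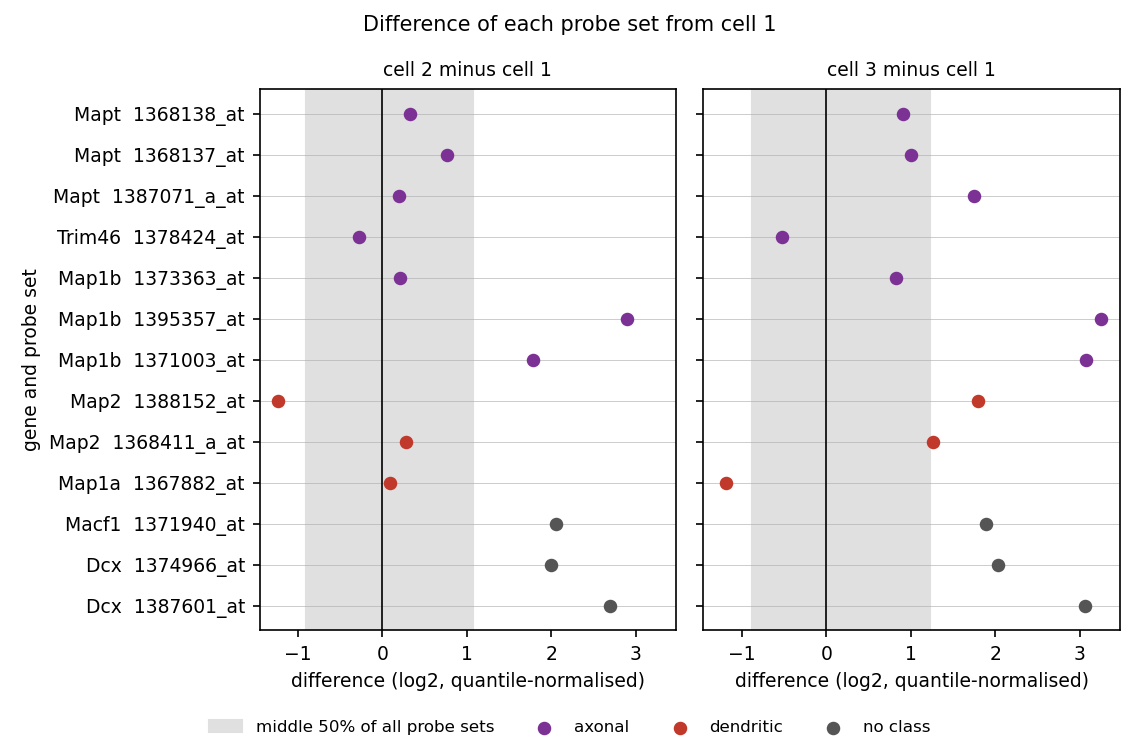
Difference of cell 2 (left) and of cell 3 (right) from cell 1 in quantile-normalised log2 intensity (horizontal axis) for the 13 probe sets (vertical axis), coloured by class, with the middle 50% of all 20832 probe sets in grey. On the right 11 probe sets lie above 0, up to 3.25 for Map1b, and Trim46 and Map1a lie below it.

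The spread of the members between cells depended on the cells and probe sets used. The median SD of the 7 genes was 1.05 log2, which was that of Map2, a gene below background. The median SD of all genes was 0.77, and the ratio was 1.36. Without cell 1 the ratio was 0.334, without cell 2 it was 1.52 and without cell 3 it was 0.836. With the brightest probe set of each gene the ratio was 0.827. Cell 1 differed from the others in control probe sets. For Gapdh the 3′ minus the 5′ control probe set was 0.20, 3.06 and 2.93 log2 in cells 1, 2 and 3, and for beta-actin 0.32, 2.07 and 1.71. For hexokinase it was -2.40, 1.79 and -0.18, so that cell 1 was again lowest but cells 2 and 3 were apart as well. Over the 14218 genes cells 2 and 3 correlated at r = 0.676, whereas cell 1 reached 0.473 with cell 2 and 0.437 with cell 3, as a description across genes, which are not replicates. The part of RNA amplification or quality in the low values of Map1b, Dcx and Macf1 in cell 1 was not tested.

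Sequence before the gene start is shown for Map1b and Dcx, which with Mapt were the members lowest in cell 1 and highest in cell 3, where 23.4% of all genes were, and for Map2 and Map1a, the dendritic pair below background. Each line gives the 250 bases upstream of the RefSeq start in build GRCr8, 5′ to 3′ along the gene, with the TATA box TATAAA and the GC box GGGCGG, or their reverse complements, in capitals. The window of Map1b is chr2:32644472-32644721 on the minus strand, that of Dcx chrX:112304162-112304411 on the minus strand, that of Map2 chr9:75346440-75346689 on the plus strand and that of Map1a chr3:128722445-128722694 on the plus strand.
Map1b: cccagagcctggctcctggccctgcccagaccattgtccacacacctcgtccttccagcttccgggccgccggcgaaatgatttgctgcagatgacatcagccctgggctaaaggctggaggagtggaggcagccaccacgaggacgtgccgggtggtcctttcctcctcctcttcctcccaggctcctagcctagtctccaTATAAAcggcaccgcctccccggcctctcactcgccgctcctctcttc
Dcx: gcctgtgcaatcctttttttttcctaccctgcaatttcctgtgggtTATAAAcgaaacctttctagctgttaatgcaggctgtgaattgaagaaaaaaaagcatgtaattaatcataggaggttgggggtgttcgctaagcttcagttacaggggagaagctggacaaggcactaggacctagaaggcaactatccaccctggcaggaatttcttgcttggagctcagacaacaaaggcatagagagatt
Map2: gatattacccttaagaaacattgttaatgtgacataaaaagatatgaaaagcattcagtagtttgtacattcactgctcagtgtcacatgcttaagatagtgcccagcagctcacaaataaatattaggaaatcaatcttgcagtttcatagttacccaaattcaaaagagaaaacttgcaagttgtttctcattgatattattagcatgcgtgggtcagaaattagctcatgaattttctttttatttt
Map1a: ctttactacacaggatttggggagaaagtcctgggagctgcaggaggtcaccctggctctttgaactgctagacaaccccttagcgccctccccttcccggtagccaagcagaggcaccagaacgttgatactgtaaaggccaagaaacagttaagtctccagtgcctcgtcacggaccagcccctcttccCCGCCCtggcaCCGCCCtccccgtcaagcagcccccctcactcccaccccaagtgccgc

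Map1b and Dcx each held 1 TATAAA in this window, which 12.9% of the 33469 RefSeq promoters in the table held on either strand. Map1a held 2 GC boxes, which 30.5% of all promoters had at least once, and Map1b, Dcx and Map2 held none. GC content was 63.6% for Map1b, 60.4% for Map1a, 44% for Dcx and 32.0% for Map2, against a median of 51.2%. A match of these letters describes the sequence and names no site in use. Of the members, 5 had an entry in the promoter table, and Mapt and Trim46 did not. Macf1, whose sequence is not shown, held 6 GC boxes and no TATAAA, with a GC content of 77.6%.

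Other genes of the microtubule system stood mostly near the middle of the arrays. Other structural microtubule-associated proteins had a median percentile of 65.3 ± 1.67 (SD, n = 3 cells; 19 of 24 listed genes measured), and 1 of the 19, Map1lc3a, was above background in all cells while 16, or 84.2%, were in none, near the 85.4% of all genes. Map1lc3a, the light chain 3 that also marks autophagosomes, stood at 98.2, 98.6 and 99.6 in cells 1, 2 and 3. Tppp3, a tubulin polymerisation promoting protein, was lowest at 9.0, 11.7 and 39.2. Proteins of microtubule ends reached 59.8 ± 8.51 (22 of 24 measured), from Clasp2, which tracks growing plus ends, at 86.7, 90.7 and 94.4 to the centrosomal Nin at 9.71, 35.3 and 4.44, the lowest by its median over the cells, while Clip1, a plus-end protein at 13.0, 3.82 and 20.7, had the lowest mean. Of those 22 genes 0 were above background in all cells, where 1.77% of all genes were.

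Severing enzymes and nucleation factors were the lowest group, at 36.3 ± 5.89 (16 of 24 measured), and all 16 were above background in no cell, like 85.4% of all genes. Its members ranged from Haus5, an augmin subunit, at 79.7, 71.2 and 81.4 to Nedd1, which recruits the gamma-tubulin ring complex, at 0.225, 0.0211 and 2.01. Kinases and phosphatases that act on these proteins lay at 61.0 ± 5.01 (25 of 29 measured). Brsk1, a kinase that polarises axons and phosphorylates tau, led them at 98.4, 99.3 and 99.3 and was the 1 member above background in all cells, and Mark3, another tau kinase, closed them at 5.15, 0.971 and 16.4. The list was above background in 1 gene in cell 1, in 3 in cell 2 and in 7 in cell 3, or 4%, 12% and 28% of its genes against 7.5%, 3.95% and 9.36% of all genes.

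Enzymes and chaperones that modify or fold tubulin lay at 50.3 ± 6.59 (19 of 26 measured), close to the 50 of all genes. Tbca, a tubulin folding cofactor, stood in the top 5% of each cell at 97.6, 95.6 and 96.3 but below background in cell 2. Svbp, the partner of the vasohibins, stood at 8.71, 16.0 and 18.3. Proteins of the axon initial segment, the compartment where Trim46 is found, lay at 51.6 ± 7.68 (21 of 22 measured), and 19 of the 21, or 90.5%, were above background in no cell, near the 85.4% of all genes. They ranged from Sptan1, a spectrin, at 97.6, 80.9 and 88.6 to Lgi1, a secreted partner of ADAM22, at 16.4, 2.99 and 0.288. Ank3, the ankyrin that organises this segment and was chosen after its values were seen, stood at 85.9, 48.6 and 51.5.

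**Figure D4:**
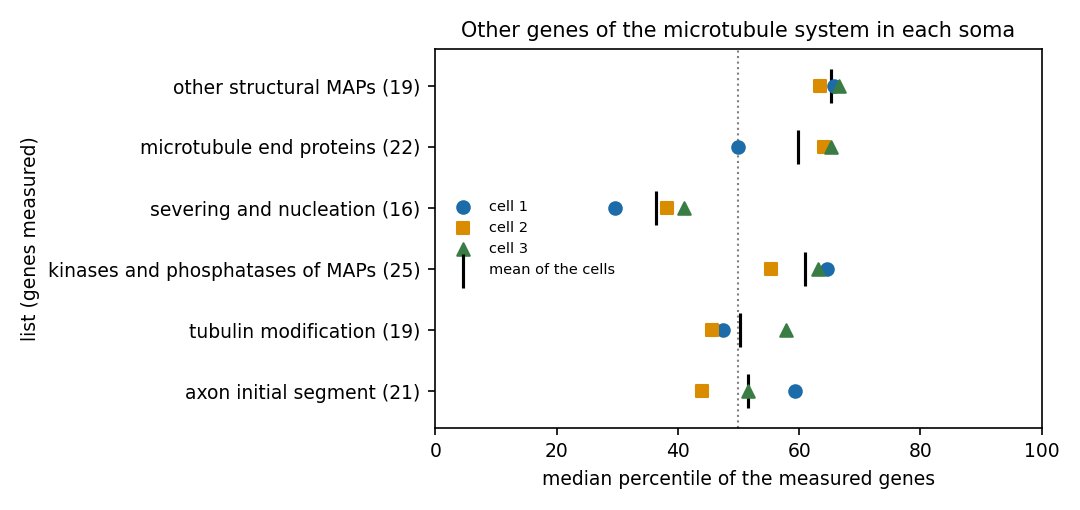
Median percentile (horizontal axis) of 6 lists of other microtubule genes (vertical axis, with the number of genes measured in brackets), where circles stand for cell 1, squares for cell 2 and triangles for cell 3, a black bar for their mean and a dotted line for the value of all genes, 50. Severing and nucleation lies below 50 in every cell and other structural proteins lie between 63.4 and 66.6.

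The labelled cell type was checked against marker lists, whose single genes named here were chosen after their values were seen. The median percentile of 18 general neuronal genes was between 76.2 and 83.3 in the cells. Of these, 1, Stmn3, was in the top 5% and above background in each cell. In no cell above background were 10 of the 18, or 55.6%, against 85.4% of all genes. Among the low ones, Uchl1 stood at 10.6, 11.7 and 23.9 in cells 1, 2 and 3, and Syt1 at 31.9, 24.7 and 7.09. For 14 pyramidal genes the median was 56.5, 41.5 and 72.1 in cells 1, 2 and 3, and for 11 interneuron genes 57.3, 70.1 and 34.7, so the interneuron list was the higher one in cells 1 and 2. Neurod2, a transcription factor of excitatory neurons, stood at 99.9, 99.95 and 99.9, and Camk2a, an abundant kinase of pyramidal neurons, between 19.6 and 26.5. Among interneuron genes Calb2, a calcium-binding protein, stood at 98.3, 91.0 and 99.1, and Gad2, an enzyme that makes GABA, at 14.1, 0.647 and 7.48. These lists did not by themselves tell the labelled pyramidal neuron from an interneuron.

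Other lists had mean medians of 30.3 for astrocytes, 63.2 for oligodendrocytes and 55.1 for endothelium and fibroblasts, where Vwf was in the top 5% of each cell. In cells 1, 2 and 3 the oligodendrocyte medians were 72.0, 63.0 and 54.7, and those of endothelium and fibroblasts 70.3, 57.7 and 37.4. S100b of the astrocyte list and Myrf of the oligodendrocyte list were above background in cell 1 alone. The 12 microglial genes had medians of 64.3, 50.5 and 31.4 in cells 1, 2 and 3. Of them 4, Tyrobp, C1qc, Csf1r and Itgam, were above background in cell 1, where 7.5% of all genes were, at percentiles from 97.0 to 99.3. Others of the list stood low in cell 1, namely Aif1 at 1.65, P2ry12 at 13.8, Tmem119 at 15.1, Cx3cr1 at 17.2 and C1qa at 21.5. No microglial gene was above background in cells 2 and 3, where 3.95% and 9.36% of all genes were. The part of the source of these microglial genes in the low values of members in cell 1 was not tested.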

How the data were processed

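Gene expression was measured in 3 single rat somata with 1 Affymetrix array each, and all formed 1 group. Per the labels, RNA was amplified in 3 rounds of antisense synthesis, the last for 14 h, and 5 µg were labelled with biotin. The authors deposited 1 log2 intensity per probe set, and the submitters' processing notes name RMA 2.0. The methods of the study give an upper-decile summary, then median centring and range scaling, for all its arrays without naming the somata. No centring was seen in the file, where the array medians were 7.23, 7.16 and 7.09. A genome build and detection calls are not given in the sources used here.

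Symbols came from the platform annotation, which can be old: of 31099 probe sets, 20832 had 1 symbol, 436 had several and 9780, besides 57 controls, are unnamed here. No probe set with several symbols carried a member. Gene numbers of 20764 single-symbol probe sets were found in the RefSeq table of assembly GRCr8, and no symbol changed. A gene took the median of its probe sets and was ranked within each array, ties sharing their mean rank. Background was set by 29 chemoreceptor and 107 organ genes. By construction, 7 of the 136 pass it in each cell, so being above it is not a call of expression. Quantile normalisation over all probe sets, which shifted sorted values by up to 0.43 log2, preceded differences between cells. The number of arrays limits the precision. No test was made.

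Members, classes and gene lists were chosen with earlier results of these data known. Text names all members, the pathway list genes with the highest and lowest median percentile over the cells, those in the top 5% of every cell, and the 3 genes most like Mapt and Map2. Clip1, Ank3 and single marker genes are named outside this rule. Scripts ran in Python 3.11.15 with numpy 2.4.6 and pandas 2.3.3 and were tested on simulated data. Alternatives were leaving out each cell, the brightest probe set per gene, dropping ambiguous or dim probe sets, other ranks, classes and background limits, and other scalings.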

Additional observations from a re-analysis of the deposited data

How the results depend on the processing

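The axonal median was above the dendritic one under all 10 alternatives run for that difference, in every cell left. The mean difference was between 36.7 and 54.8 percentile points. The latter, with all probe sets of a class, was the 1 alternative that moved it by more than its SD. Not every alternative could change the sign. Leaving out a cell kept differences that were already positive, and dropping ambiguous probe sets (IDs ending in _s_at or _x_at) removed none of a member. Adding Dcx and Macf1 to the axonal class left the mean difference at 40.9, because Mapt was still the median. As the genes were chosen with these levels known, the agreement is a description and no separate support. With genes above the array medians, Map2 dropped out and Map1a alone was left as dendritic, and the class difference ran from 20.2 to 65.3 points over the cells. In that setting 3 member probe sets in place of 5 were in the top 5% of every cell. Severing and nucleation genes moved to 54.4 there and other structural proteins to 49.998. When each gene took its brightest probe set, the latter moved to 74.8 and the kinases and phosphatases to 72.2. At the 99th percentile of the silent genes 1 member, not 3, was above background in every cell. Leaving out each cell in turn gave ratios of the members' SD to that of all genes between 0.334 and 1.52, differences between axonal and dendritic members between 37.6 and 43.9, and 3 to 4 genes and 5 to 7 probe sets in the top 5%. The cause of these shifts was not tested. No paired analysis was possible because there is 1 group.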

Other observations

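The genes whose differences between the 3 cells were most like those of Mapt were Lrp12, Klhdc8a and Grid1, which departed from it by at most 0.01, 0.02 and 0.02 log2 after each gene's mean was removed. For Map2 they were Slc9a8, Pkia and Adgre1, within 0.03, 0.04 and 0.05 log2. With 3 cells such likeness is common: 148 of 14217 genes lay within 0.1 log2 of Mapt and 28 within 0.1 log2 of Map2.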
